A study of Mus musculus with 18 samples.

Results

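De novo lipogenesis, the making of fatty acids from carbohydrate carbon, was followed through 8 genes among the 24539 listed for mouse liver. They were chosen by gene name, as the rows of each library's table that carry these symbols: the enzymes Acly, Acaca, Acacb, Fasn and Me1, and the regulators Thrsp, Srebf1 and Mlxipl. Each had reads in all 18 libraries, from 207 reads (Srebf1) to 20195 reads in a library, and all 8 passed the filter on low counts in every fit. The livers came from male wild type C57BL/6 mice, 16 weeks old at sampling, which had been on their diet for 8 weeks. The groups were a high-fat diet with added lycopene, the red carotenoid of tomatoes (HFD+LYC), the same kind of diet without it (HFD) and normal chow (control), with 3 livers each. Each liver gave 1 library of RNA from ribosome-nascent chain complexes (RNC), pelleted through sucrose in the presence of the elongation inhibitor cycloheximide, and 1 library of total RNA (mRNA), both selected for poly(A) tails. RNC libraries thus hold transcripts bound by ribosomes. The lycopene dose, the makeup of the diets, the hour of sampling and the feeding state are unstated in the sources used here.

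In lipogenesis, citrate leaves the mitochondrion and ATP citrate lyase (Acly) splits it to give cytosolic acetyl-CoA. Acetyl-CoA carboxylase makes malonyl-CoA from it, in the cytosol as the Acaca product and at the mitochondrial outer membrane as the Acacb product, where malonyl-CoA holds back fatty acid oxidation. Fatty acid synthase (Fasn) builds palmitate from both, using NADPH that the cytosolic malic enzyme (Me1) helps to supply. In liver the genes are switched on after carbohydrate feeding by SREBP-1, made from Srebf1 and activated by cleavage from membranes, and by ChREBP, made from Mlxipl and activated by sugar metabolites, so the RNA of neither gene measures its activity. Thrsp encodes Spot14, a small protein that rises with thyroid hormone and carbohydrate and is tied to lipogenesis.

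Sequences just upstream of a RefSeq start of Thrsp, Fasn and Me1 are shown. These genes had the largest called differences between HFD+LYC and another diet in ribosome-bound RNA. Each is the 250 bases before the RefSeq start in build GRCm38.p6, written 5′ to 3′ on the minus strand, the strand of the gene. The Thrsp sequence lies at chr7:97417551-97417800, that of Fasn at chr11:120824548-120824797 and that of Me1 at chr9:86695915-86696164. The Fasn sequence lies inside the gene span given below, which reaches 120825166, so it precedes a start within that span. Capitals mark the CCAAT box (CCAAT) and the GC box (GGGCGG), read on both strands.
Thrsp: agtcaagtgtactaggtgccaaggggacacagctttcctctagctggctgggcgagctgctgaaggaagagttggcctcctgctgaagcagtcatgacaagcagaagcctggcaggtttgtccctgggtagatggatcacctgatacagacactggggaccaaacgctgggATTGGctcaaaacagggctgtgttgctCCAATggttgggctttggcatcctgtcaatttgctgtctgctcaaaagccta
Fasn: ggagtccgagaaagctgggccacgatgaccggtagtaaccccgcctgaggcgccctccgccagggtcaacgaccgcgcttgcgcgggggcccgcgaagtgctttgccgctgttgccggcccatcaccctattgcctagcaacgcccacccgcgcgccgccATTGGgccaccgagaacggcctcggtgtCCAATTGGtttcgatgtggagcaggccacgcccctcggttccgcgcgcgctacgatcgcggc
Me1: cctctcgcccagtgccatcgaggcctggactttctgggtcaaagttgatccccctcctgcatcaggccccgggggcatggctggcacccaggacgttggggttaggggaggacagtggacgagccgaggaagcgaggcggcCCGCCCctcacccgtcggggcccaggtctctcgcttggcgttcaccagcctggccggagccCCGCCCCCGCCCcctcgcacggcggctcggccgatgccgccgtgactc
The Thrsp sequence held a CCAAT box at -79 and one at -52 from the start. The Fasn sequence held CCAAT boxes at -90, -62 and -59, and the last pair share letters because they lie on opposite strands. Me1 held no CCAAT box in this window but GC boxes at -109, -48 and -42. All 8 genes had a RefSeq window, 12 windows in all, of which 7 held CCAAT, against 33.85% of all 32851 mouse windows, and 5 held GGGCGG, against 32.7%. The E-box CACGTG, the core of a ChREBP site, was in 1 of the 12 windows, that of Mlxipl at -98, and in 6.02% of all windows. The SREBP site TCACNCCAC was also in 1, another Mlxipl window at -136, and in 1.05% of all windows. The TATA box TATAAA was in 1, that of Acacb at -34, and in 12.4% of all windows. A match describes letters only.

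Libraries held 4533729 to 12742436 listed reads, and the 8 genes took 0.0852% to 0.733% of them. The RNC libraries of HFD+LYC livers stood apart from the other RNC libraries: reads came from 8940 to 10037 genes, against 13324 to 14450, and 70 to 112 genes had exactly 1 read, against 614 to 861. Among mRNA libraries, HFD+LYC replicate 2 had 189 genes with 1 read, against 652 to 798 in the other 8. Checked against the liver label, 8 hepatocyte markers (Alb, Ttr, Apoa1, Apob, Apoh, Serpinc1, Fgb and Tat) had reads in every group. In such bulk samples, fewer cells of a type and less RNA per cell cannot be told apart.

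On the per-length scale (RPKM, reads per kilobase of transcript for each 1000000 reads, as the authors deposited it), the regulators Thrsp and Mlxipl stood above all 5 enzymes in total RNA of every diet. Thrsp averaged 1340 ± 128 RPKM in HFD+LYC livers, 272 ± 104 RPKM in HFD livers and 136 ± 73.9 RPKM in control livers (SD, n = 3 each). Mlxipl averaged 561 ± 150, 292 ± 185 and 397 ± 243 RPKM in HFD+LYC, HFD and control livers. The carboxylases were the lowest of the set in all 6 groups of libraries, with Acacb at 25.5 ± 0.579, 14.6 ± 8.41 and 7.78 ± 3.79 RPKM of total RNA. In ribosome-bound RNA Thrsp was again first in every diet, at 659 ± 295, 327 ± 145 and 210 ± 88.2 RPKM. Me1 was second there in HFD livers (194 ± 71.1 RPKM) and control livers (66.7 ± 16.2 RPKM), but sixth of the 8 genes in HFD+LYC livers (14.1 ± 3.11 RPKM). Mlxipl, first or second in total RNA, averaged 17.3 ± 11.9, 40.3 ± 27.8 and 42.1 ± 7.44 RPKM in ribosome-bound RNA. Neighbours in these orders often overlapped in range, such as Acaca and Acacb in every diet of total RNA.

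**Figure D1:**
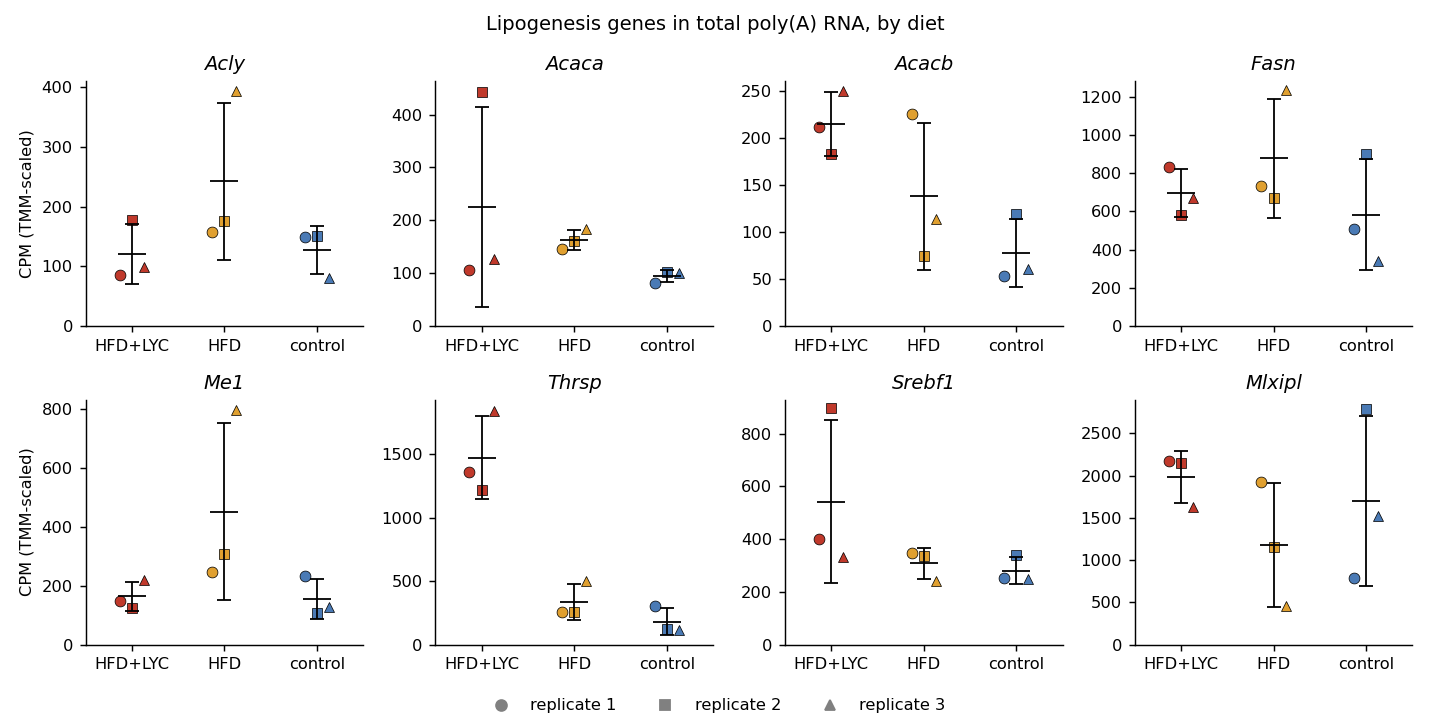
Levels of the 8 genes in total RNA, as TMM-scaled CPM, in HFD+LYC, HFD and control livers. Each symbol is 1 liver, the bar is the mean and the whiskers are 1 SD (n = 3). Thrsp stood at 1221 to 1845 CPM in HFD+LYC livers, above all 6 other livers, while Fasn and Mlxipl overlapped between diets.

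Diet effects were tested on read counts with edgeR's quasi-likelihood test, adjusted by Benjamini-Hochberg over all genes, and a gene is called at an adjusted p under 0.05. Levels are CPM, counts for each 1000000 reads after TMM scaling, within the 9 libraries of 1 kind. In total RNA, HFD against control livers called 0 of the 8 genes and 0.0158% of 12664 genes. Of the 8, 7 lay above 0, against 49.1% of all genes, with a median log2 fold change of 0.81 against -0.01 over all genes. Of the 8 genes 1, Me1, had an unadjusted p under 0.05, against 2.83% of all genes, and DESeq2 and limma-voom also called 0. Of all genes DESeq2 called 0.221% higher and 0.103% lower, and limma-voom 0.0079% and 0%. For 3 genes, Acly, Acaca and Me1, the lowest HFD liver lay above the highest control liver, which held for 3.76% of all genes. On CPM of listed reads alone it held for 2 of them, not for Acly. HFD+LYC against HFD livers called 1 of 8 higher (Thrsp) and 0 lower, against 1.99% and 0.916% of all genes. HFD+LYC against control livers again called 1 higher (Thrsp), against 3.31% of all genes, and 0 lower, against 2.23%.

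In ribosome-bound RNA, HFD against control livers again called 0 of 8, against 0.00858% of 11660 genes. Here 4 had an unadjusted p under 0.05, against 1.84% of all genes, and the same 4 genes (Acaca, Acacb, Fasn and Me1) had their lowest HFD liver above their highest control liver, against 6.97% of genes. Of the 8, 7 lay above 0, against 51.2% of genes. DESeq2 called 2 of them higher, Fasn and Me1, against 0.24% of all genes, and limma-voom 0, against 0%. HFD+LYC against HFD livers called 1 higher (Thrsp), against 9.34% of genes, and 1 lower (Me1), against 17.4%. HFD+LYC against control livers called 4 higher (Acaca, Acacb, Fasn and Thrsp), against 9.23% of genes, and 1 lower (Me1), against 17.1%. Both HFD+LYC contrasts share the HFD+LYC libraries, so they are not independent. The median gene lay at -0.29 log2 in HFD+LYC against HFD livers and at -0.28 against control livers in ribosome-bound RNA. Over the 6426 genes with at least 10 reads in every RNC library that median was 0.11 in both contrasts, so its sign turns with the genes counted. For the called genes, differences relative to both medians are given beside the fitted ones. TMM gave HFD+LYC RNC replicate 1 a factor of 0.428, against 0.836 to 1.34 in the other 8 RNC libraries, which raises its scaled levels. In HFD+LYC against HFD livers, 3 genes (Acaca, Fasn and Thrsp) had all HFD+LYC livers higher with TMM, but 0 on CPM of listed reads alone or on the deposited RPKM. Against control livers 4 did with TMM (Acaca, Acacb, Fasn and Thrsp) and 1, Thrsp, on either other scale. Me1 was lower in all HFD+LYC livers on all 3 scales. No share over all genes is given for overlap in these HFD+LYC contrasts. These counts therefore describe the livers and do not set the 8 genes apart.

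**Figure D2:**
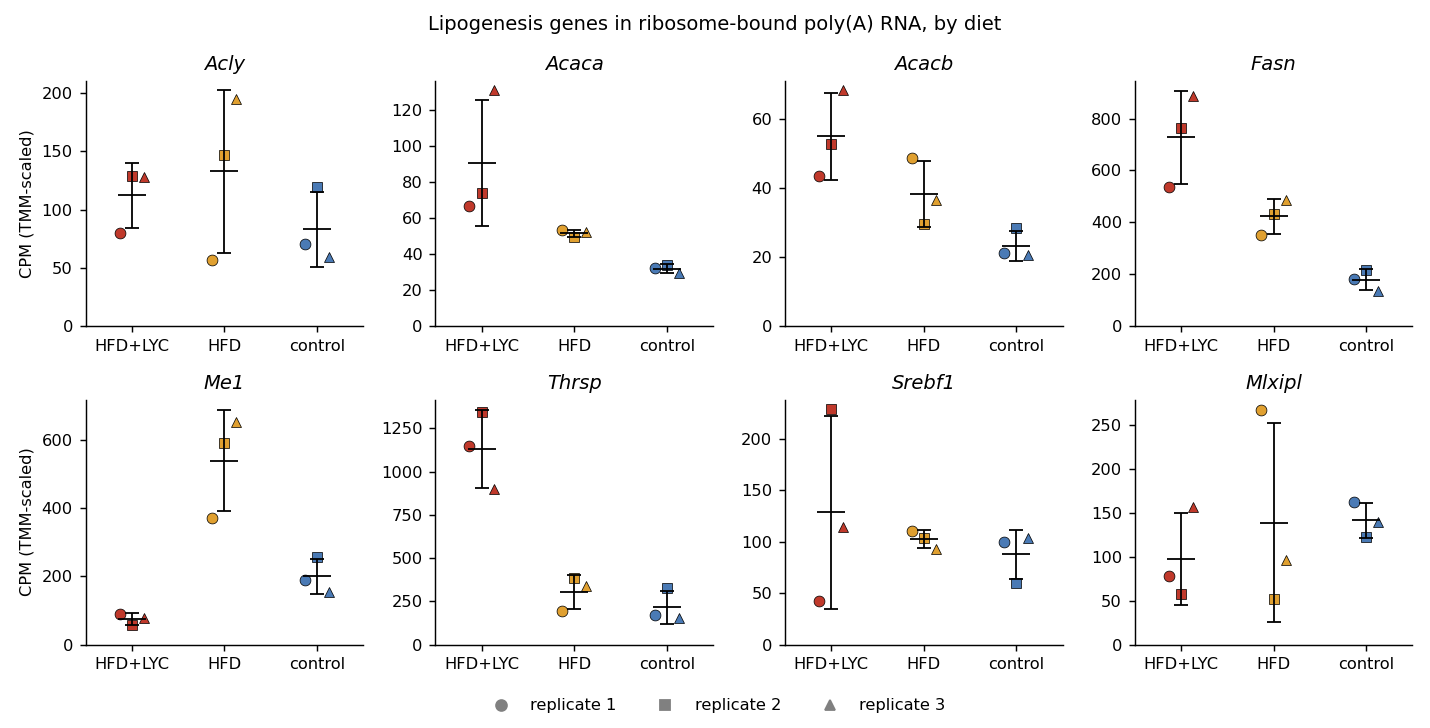
Levels of the 8 genes in ribosome-bound RNA (RNC), as TMM-scaled CPM, in HFD+LYC, HFD and control livers. Each symbol is 1 liver, the bar is the mean and the whiskers are 1 SD (n = 3). Me1 lay at 56.6 to 91.1 CPM in HFD+LYC livers, below all other livers, and Fasn fell into 3 bands on this scale, with HFD+LYC highest and control lowest. On CPM of listed reads alone, HFD+LYC replicate 1 had 229 CPM of Fasn, within the control range.

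Acly (chromosome 11, 100476352 to 100528000, minus strand), which opens the pathway, was not called between diets in either kind of RNA. In total RNA it stood at 85.8, 177 and 98.5 CPM in HFD+LYC livers, 158, 176 and 394 CPM in HFD livers and 149, 151 and 80.5 CPM in control livers. Its log2 fold change was -1.01 (SE 0.452, edgeR adjusted p = 0.197) in HFD+LYC against HFD livers and 0.93 in HFD against control livers (adjusted p = 1.00). The HFD livers were all above the control livers, the lowest of them narrowly, and HFD replicate 3 was far above every other liver. In ribosome-bound RNA its values were 80.1, 129 and 128 CPM in HFD+LYC livers, 56.9, 147 and 195 CPM in HFD livers and 70.6, 120 and 58.9 CPM in control livers. All 3 diets overlapped there.

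Acaca and Acacb, the genes of the carboxylases, were higher in HFD+LYC than in control livers on ribosomes. Acaca (chromosome 11, 84129635 to 84401651, plus strand) had 66.8, 73.8 and 131 CPM in ribosome-bound RNA of HFD+LYC livers, 53.0, 49.4 and 51.9 CPM of HFD livers and 32.1, 34.0 and 29.3 CPM of control livers. The 3 diets did not overlap on this scale, and replicates within HFD and within control lay close together. On listed reads alone Acaca had 28.6, 84.9 and 109 CPM in HFD+LYC livers, against 59.6 to 66.1 CPM in HFD and 31.3 to 38.6 CPM in control livers. HFD+LYC replicate 1 was then below all control livers and the other 2 were above all HFD livers. Acaca rose 2.85-fold in HFD+LYC against control livers (log2 1.51, SE 0.277, edgeR adjusted p = 0.00449). Against HFD livers its log2 fold change of 0.82 (SE 0.273) was not called (adjusted p = 0.0515), though it was called by DESeq2 (0.0146) and by limma-voom (0.0494). In HFD against control livers it was 0.69 (SE 0.272), not called.

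Acacb (chromosome 5, 114146321 to 114250761, plus strand) had 43.7, 52.9 and 68.7 CPM in ribosome-bound RNA of HFD+LYC livers, 48.8, 29.6 and 36.6 CPM of HFD livers and 21.2, 28.4 and 20.5 CPM of control livers. HFD+LYC livers overlapped HFD livers, and both lay above all control livers on this scale, while on listed reads alone HFD+LYC replicate 1 (18.7 CPM) was below all control livers (21.9 to 30.5 CPM). Acacb rose 2.36-fold in HFD+LYC against control livers (log2 1.24, SE 0.285, edgeR adjusted p = 0.0101). Scaled by library size alone, without TMM, neither carboxylase gene was called there (log2 1.06 with adjusted p = 0.128 for Acaca, and 0.81 with 0.245 for Acacb), and Acacb was also not called without control RNC replicate 3 (adjusted p = 0.0508). Relative to the median gene, the differences were 1.79 for Acaca and 1.51 for Acacb with TMM, and 1.81 and 1.55 by library size alone. Over the 6426 genes read in every RNC library they were 1.41 and 1.14.

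In total RNA the carboxylases leaned the same way without a call. Acaca had 106, 443 and 127 CPM in HFD+LYC livers, 146, 161 and 183 CPM in HFD livers and 81.0, 102 and 99.7 CPM in control livers. The 443 CPM came from HFD+LYC replicate 2, the mRNA library with few genes at 1 read, and without it the log2 fold change in HFD+LYC against control livers was 0.31, against 1.26 with it (edgeR adjusted p = 0.150). Acacb had 212, 183 and 250 CPM in HFD+LYC livers, 225, 75.0 and 114 CPM in HFD livers and 52.9, 119 and 60.8 CPM in control livers. All HFD+LYC livers lay above all control livers (log2 1.47, SE 0.453, edgeR adjusted p = 0.0822, called by DESeq2 at 0.0131), while HFD livers overlapped both.

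Fasn (chromosome 11, 120805958 to 120825166, minus strand), which builds palmitate, was called higher on ribosomes in HFD+LYC than in control livers, and was not called in total RNA. In ribosome-bound RNA it had 535, 762 and 887 CPM in HFD+LYC livers, 352, 431 and 487 CPM in HFD livers and 182, 218 and 137 CPM in control livers. No diet overlapped another on this scale. On listed reads alone Fasn had 229, 877 and 741 CPM in HFD+LYC livers, 400, 578 and 559 CPM in HFD livers and 219, 234 and 146 CPM in control livers. HFD+LYC replicate 1 was then below all HFD livers and within the control range, and the deposited values averaged 48.9 ± 24.1 RPKM in HFD+LYC livers and 49.3 ± 12.7 RPKM in HFD livers (SD, n = 3 each). Fasn rose 4.07-fold in HFD+LYC against control livers (log2 2.02, SE 0.291, edgeR adjusted p = 0.00145), and relative to the median gene the difference was 2.30, or 1.93 over the 6426 genes. That call held by library size alone (log2 1.62, adjusted p = 0.0321). In HFD+LYC against HFD livers its log2 fold change was 0.78 (SE 0.282, adjusted p = 0.0679), and 0.26 by library size alone. In HFD against control livers it was 1.24 (SE 0.285, adjusted p = 0.886, unadjusted 0.00152), a difference called by DESeq2 (adjusted p = 0.00345). In total RNA Fasn had 832, 583 and 671 CPM in HFD+LYC livers, 732, 669 and 1236 CPM in HFD livers and 508, 903 and 340 CPM in control livers. These overlapped throughout, with log2 fold changes of -0.34 in HFD+LYC against HFD livers and 0.25 against control livers.

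Me1 (chromosome 9, 86581363 to 86695914, minus strand), a source of NADPH, was called lower on ribosomes in HFD+LYC livers than in either other diet, where Acaca, Acacb and Fasn had fitted fold changes above 0. In ribosome-bound RNA it had 91.1, 56.6 and 78.2 CPM in HFD+LYC livers, 372, 592 and 655 CPM in HFD livers and 191, 257 and 156 CPM in control livers. Every HFD+LYC liver was below every control liver, and every control liver was below every HFD liver. Me1 fell 7.17-fold in HFD+LYC against HFD livers (log2 -2.84, SE 0.328, edgeR adjusted p = 0.000516) and 2.67-fold against control livers (log2 -1.42, SE 0.312, adjusted p = 0.00853). Relative to the median gene these were -2.55 and -1.14, or -2.95 and -1.51 over the 6426 genes. Both calls held when any 1 library was left out and by library size alone. In HFD against control livers its log2 fold change was 1.42 (SE 0.311, adjusted p = 0.886, unadjusted 0.00114), called by DESeq2 (adjusted p = 0.00597).

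In total RNA Me1 had 148, 125 and 219 CPM in HFD+LYC livers, 247, 308 and 796 CPM in HFD livers and 233, 106 and 127 CPM in control livers. HFD livers stood above all others, by the most in replicate 3, and HFD+LYC livers overlapped control livers. The log2 fold change was -1.46 (SE 0.498, edgeR adjusted p = 0.115) in HFD+LYC against HFD livers and 0.08 (SE 0.489, adjusted p = 0.937) against control livers. In HFD against control livers it was 1.53 (SE 0.499, unadjusted p = 0.0100), not called after adjustment (adjusted p = 1.00). DESeq2 called the difference between HFD+LYC and HFD livers (adjusted p = 0.0308). Without HFD mRNA replicate 3 the edgeR values were -0.76 in HFD+LYC against HFD livers (adjusted p = 0.401) and 0.83 in HFD against control livers, not called. Exons of Me1 share 30 bases with the antisense gene A330041J22Rik, and reads of both strands cannot be told apart, since no source used here states the strand setting of the counting.

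Thrsp (chromosome 7, 97412933 to 97417550, minus strand) was the 1 gene of the set called higher in HFD+LYC livers against both other diets in both kinds of RNA. In total RNA it had 1361, 1221 and 1845 CPM in HFD+LYC livers, 256, 256 and 502 CPM in HFD livers and 302, 122 and 117 CPM in control livers. HFD+LYC livers lay far above the rest, and HFD and control livers overlapped. Thrsp rose 4.37-fold in HFD+LYC against HFD livers (log2 2.13, SE 0.487, edgeR adjusted p = 0.0413) and 8.18-fold against control livers (log2 3.03, SE 0.505, adjusted p = 0.00907). The first of these calls held only without control mRNA replicate 1 or 2 among 9 fits that left out a library, with adjusted p of 0.0312 to 0.122 and log2 1.93 to 2.53, and the second was lost without control mRNA replicate 3 (adjusted p = 0.0691).

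On ribosomes Thrsp had 1146, 1347 and 901 CPM in HFD+LYC livers, 195, 384 and 336 CPM in HFD livers and 168, 325 and 152 CPM in control livers. The HFD+LYC livers again stood apart on this scale and the other 2 diets overlapped. On listed reads alone Thrsp had 490, 1549 and 752 CPM in HFD+LYC livers, 222, 515 and 385 CPM in HFD livers and 202, 349 and 163 CPM in control livers, so HFD+LYC livers overlapped HFD but not control livers. Thrsp rose 3.71-fold in HFD+LYC against HFD livers (log2 1.89, SE 0.382, edgeR adjusted p = 0.00588) and 5.26-fold against control livers (log2 2.40, SE 0.389, adjusted p = 0.00277). By library size alone the first was 1.31 and not called (adjusted p = 0.0872). Relative to the median gene it was 2.18 with TMM and 2.19 by library size alone, or 1.78 over the 6426 genes. The second was 2.67 relative to the median gene, or 2.31 over the 6426 genes, and was also called by library size alone (log2 1.97, adjusted p = 0.0204).

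Srebf1 (chromosome 11, 60199084 to 60224186, minus strand), the SREBP-1 gene, was not called between diets. In total RNA it had 400, 896 and 330 CPM in HFD+LYC livers, 346, 337 and 240 CPM in HFD livers and 253, 339 and 249 CPM in control livers. HFD+LYC replicate 2 was again the highest, and without it the log2 fold change in HFD+LYC against control livers was 0.38, against 0.95 with it (edgeR adjusted p = 0.194). In ribosome-bound RNA it had 42.8, 229 and 114 CPM in HFD+LYC livers, 111, 104 and 93.3 CPM in HFD livers and 99.8, 59.8 and 104 CPM in control livers. HFD+LYC livers spanned the range of both other diets. The files merge splice variants, so the SREBP-1a and SREBP-1c transcripts are counted as 1 gene, and exons of Srebf1 share 109 bases with Rai1 on the other strand.

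Mlxipl (chromosome 5, 135089890 to 135139768, plus strand), the ChREBP gene, was not called between diets either. In total RNA it had 2174, 2150 and 1630 CPM in HFD+LYC livers, 1923, 1158 and 456 CPM in HFD livers and 787, 2783 and 1527 CPM in control livers. Spread within the HFD and control groups was wide enough to overlap HFD+LYC. In ribosome-bound RNA it had 78.4, 57.9 and 157 CPM in HFD+LYC livers, 267, 52.2 and 96.8 CPM in HFD livers and 162, 123 and 140 CPM in control livers. The log2 fold changes there were -0.50 (SE 0.562) in HFD+LYC against HFD livers and -0.53 (SE 0.562) against control livers, with all diets overlapping on this scale. On listed reads alone it had 33.5 to 131 CPM in HFD+LYC livers, all below the 132 to 195 CPM of control livers. Its exons share 235 bases with the antisense gene Gm43500.

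**Figure D3:**
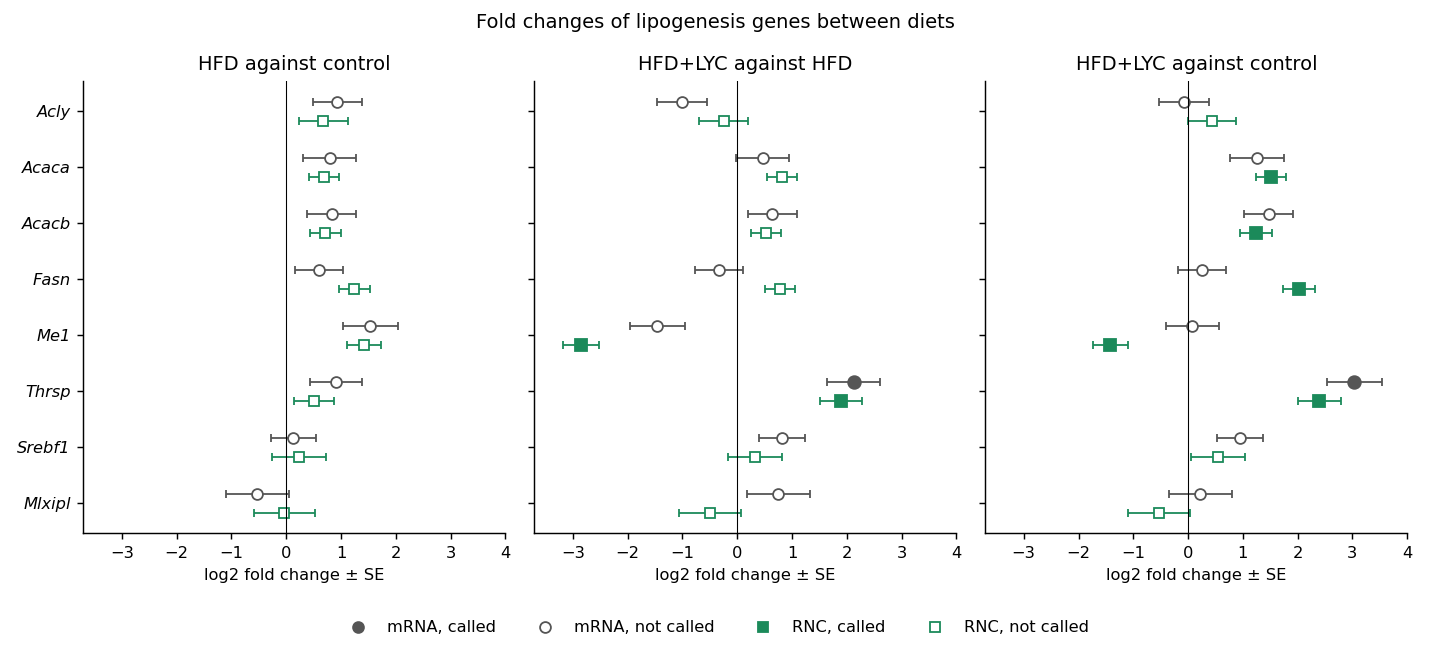
Fitted log2 fold changes with standard errors for the 8 genes in 3 diet contrasts, in total RNA (circles) and ribosome-bound RNA (squares). Filled symbols are called at an edgeR adjusted p under 0.05. No symbol is filled in HFD against control livers; Thrsp is filled in both kinds of RNA in both HFD+LYC contrasts, and Me1 lies at -2.84 and -1.42 in ribosome-bound RNA.

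Thrsp and Me1 can also be set against each other within a library, which removes any scaling between libraries. This pair was chosen after the values were seen. In ribosome-bound RNA, Me1 over Thrsp (both in RPKM) was 0.0142 to 0.0294 in HFD+LYC livers, 0.521 to 0.660 in HFD livers and 0.268 to 0.384 in control livers. In total RNA the ratio was 0.0347 to 0.0402 in HFD+LYC livers, 0.327 to 0.536 in HFD livers and 0.261 to 0.366 in control livers. The HFD+LYC livers lay below all others in both kinds of RNA. As a share of the 8 genes' summed RPKM on ribosomes, Thrsp made up 77.7% to 87.8% in HFD+LYC livers, 39.3% to 53.3% in HFD livers and 47.8% to 61.7% in control livers. Me1 made up 1.22% to 2.36% in HFD+LYC livers, 25.4% to 30.6% in HFD livers and 16.5% to 18.3% in control livers, again with no overlap. Acaca over Acacb, by contrast, lay between 1.02 and 1.79 in all 9 RNC libraries, with the diets overlapping.

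**Figure D4:**
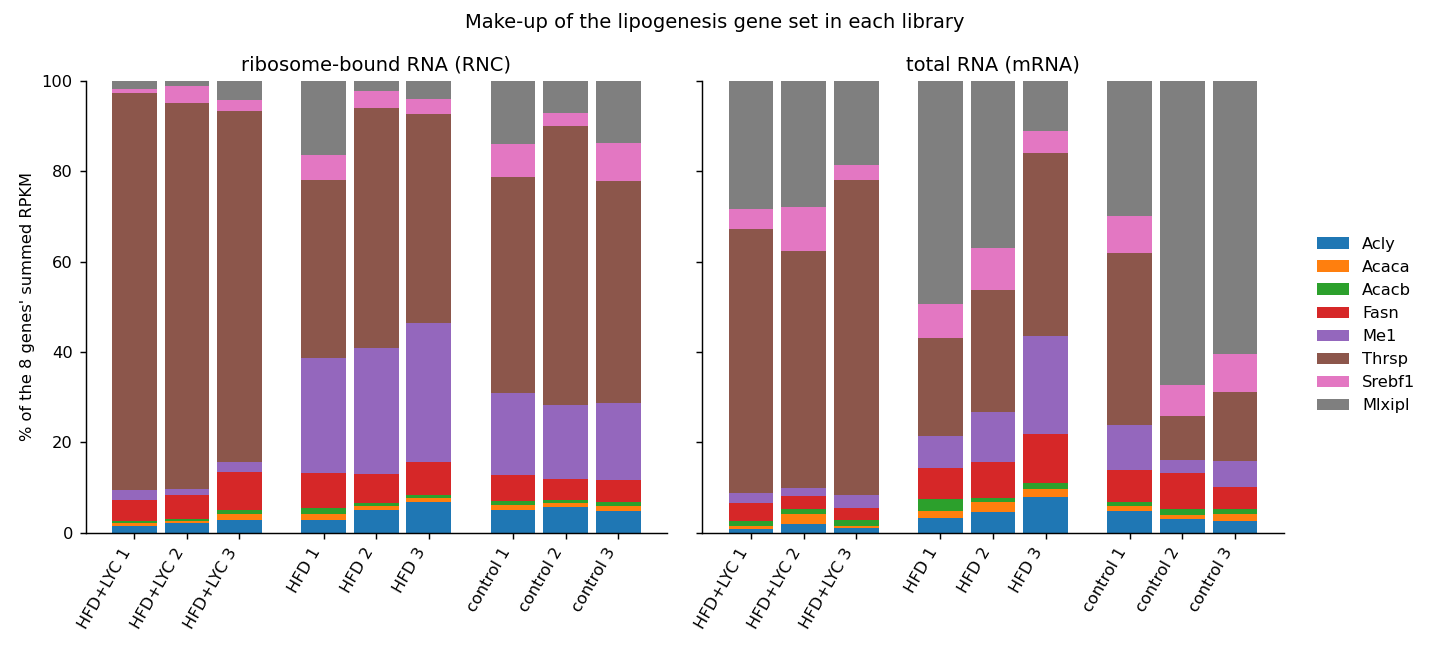
Share of each gene in the summed RPKM of the 8 genes, per library, in ribosome-bound RNA (left) and total RNA (right), by diet and replicate. Thrsp takes 77.7% to 87.8% of the bar in ribosome-bound RNA of HFD+LYC livers, Me1 takes 25.4% to 30.6% in HFD livers, and Mlxipl takes 11.1% to 67.2% of total RNA in HFD and control livers.

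Whether diet moved ribosome-bound relative to total RNA of each gene was asked in 1 model over all 18 libraries. That model fits group means, so its tests do not pair the RNC and mRNA libraries of a liver. Ratios below are RNC over mRNA CPM of 1 liver, with the TMM scaling of that model. HFD against control livers called 0 of 8 ratios, as it called 0 of 12872 genes (0%), with 0 of 8 at an unadjusted p under 0.05 against 0.155% of genes, and DESeq2 and limma-voom called 0. HFD+LYC against HFD livers called 0 of 8, against 16.4% of genes, with 1 of 8 (Me1) at an unadjusted p under 0.05 against 29.2% of genes, and both other tools called 0. HFD+LYC against control livers called 1 of 8 higher, Fasn, against 2.77% of genes, and 0 lower, against 12%. The median gene lay at -0.41 and -0.37 log2 in these HFD+LYC contrasts, and at 0.05 and 0.06 over the 6426 genes with at least 10 reads in every RNC library.

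For Fasn, RNC over mRNA was 1.20, 2.43 and 2.46 in HFD+LYC livers, 0.951, 1.26 and 0.761 in HFD livers and 0.693, 0.478 and 0.768 in control livers. HFD+LYC livers lay above all control livers on this scale, and HFD livers overlapped both. On listed reads alone the ratio was 0.267, 1.19 and 1.23 in HFD+LYC livers, against 0.232 to 0.512 in control livers, which overlap. The ratio rose 3.26-fold in HFD+LYC against control livers (log2 1.70, SE 0.522, edgeR adjusted p = 0.0349), and relative to the median gene the difference was 2.08, or 1.76 over the 6426 genes. The call was lost with no filter on low counts (adjusted p = 0.0520), with the compared libraries alone (0.0627) and by library size alone (log2 1.29, 0.186), and it held in 12 of 18 fits that left out 1 library (0.0218 to 0.0957). It was lost without control mRNA replicate 2, HFD+LYC mRNA replicate 2 or 3, control RNC replicate 1 or 3, or HFD+LYC RNC replicate 3. For Me1, RNC over mRNA was 1.15, 0.839 and 0.665 in HFD+LYC livers, 2.98, 3.76 and 1.59 in HFD livers and 1.58, 4.80 and 2.34 in control livers. HFD+LYC livers were below all others, also on listed reads alone (0.256 to 0.409, against 1.08 to 2.25 in HFD and 1.17 to 2.33 in control livers), but no contrast was called (log2 -1.45, SE 0.622, adjusted p = 0.127 against HFD livers, and -1.55, SE 0.623, adjusted p = 0.107 against control livers). By library size alone both were called (adjusted p = 0.0102 and 0.0103), at log2 -2.20 and -2.23.

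**Figure D5:**
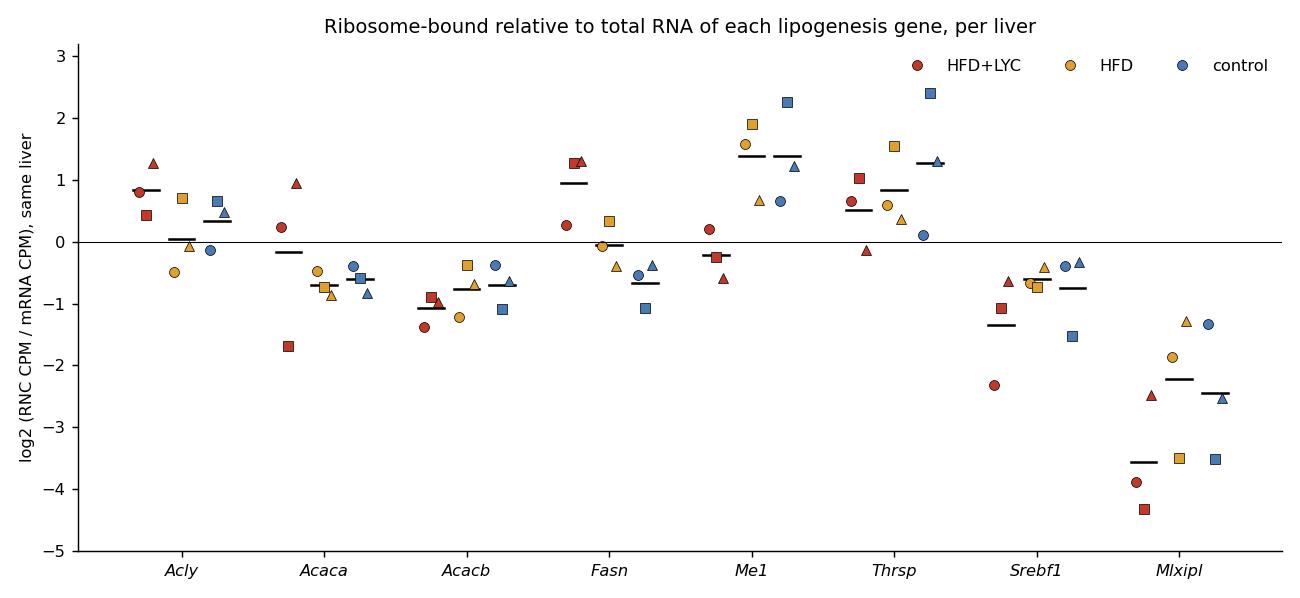
RNC over mRNA CPM of each gene in each liver, on a log2 axis, with HFD+LYC, HFD and control side by side. Symbols are single livers (circle, square and triangle for replicates 1, 2 and 3) and bars are means of 3. Mlxipl, Acacb and Srebf1 lie below 0 in all 9 livers, and Fasn lies above 0 in the 3 HFD+LYC livers and below 0 in the 3 control livers on this TMM scale.

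Within a diet, Mlxipl was the gene of the set least represented on ribosomes. Its RNC over mRNA ratio was 0.0675, 0.0501 and 0.180 in HFD+LYC livers, 0.275, 0.0883 and 0.410 in HFD livers and 0.399, 0.0876 and 0.174 in control livers. All 9 livers were thus below 1. In HFD+LYC livers Mlxipl was 10.8-fold lower in RNC than in mRNA libraries (log2 -3.43, SE 0.646, edgeR adjusted p = 0.000536). In control livers it was 6.14-fold lower (log2 -2.62, SE 0.623, adjusted p = 0.0410). That call was lost with the liver as a replicate block (log2 -2.46, adjusted p = 0.0983) and in 10 of 18 fits that left out a library (adjusted p of 0.0246 to 0.274 over the 18), by the most without control mRNA replicate 2. In HFD livers the difference was -2.11 (SE 0.611) and not called (adjusted p = 0.104). Among all genes its fold change ranked at the 15.0th percentile in HFD+LYC, the 3.64th in HFD and the 2.32nd in control livers.

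In HFD+LYC livers 3 of 8 genes were called lower in RNC than in mRNA libraries, against 30.6% of all genes, and 1 higher, against 12.8%, both near the share of all genes. The median gene lay at -0.51 log2 there, or -0.06 over the 6426 genes. Acacb was lower (log2 -1.07, SE 0.383, edgeR adjusted p = 0.0322), at 59.5, 69.6 and 94.0 CPM in RNC against 154, 129 and 184 CPM in mRNA libraries. That call was lost without HFD+LYC mRNA replicate 1 or 3, or HFD+LYC RNC replicate 1 or 2 (adjusted p of 0.0678 to 0.0894). Srebf1 was lower (log2 -1.18, adjusted p = 0.0477), at 58.4, 301 and 156 CPM in RNC against 291, 634 and 242 CPM in mRNA libraries, which overlap, and among 18 fits that left out a library the call held only without HFD+LYC mRNA replicate 3 or HFD+LYC RNC replicate 2. Without HFD+LYC mRNA replicate 2 its value was -0.59 (edgeR adjusted p = 0.353). Fasn was higher (log2 0.96, adjusted p = 0.0429) with TMM but not by library size alone, where its value was -0.25 (adjusted p = 0.645), and the call held in 9 of 18 fits that left out a library (adjusted p of 0.0208 to 0.125). In HFD livers 0 of 8 were called, against 0.101% of genes, with 3 at an unadjusted p under 0.05 against 20.8%. DESeq2 called 1 there (Mlxipl) and limma-voom 0, and their shares of all genes are not given. In control livers 1 of 8 was called lower (Mlxipl), against 2.11% of genes, and 0 higher, against 0.0155%. Me1 and Thrsp lay on the other side of 0 from Mlxipl in control livers, at log2 1.32 (adjusted p = 0.0883) and 1.21 (adjusted p = 0.104), not called.

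Known SREBP-1 target genes other than the 8 moved in both directions on ribosomes. Of 15 tested, 7 rose and 2 fell in HFD+LYC against HFD livers (9.34% and 17.4% of all genes), with a median log2 fold change of 0.70 against -0.29 over all genes. By library size alone 2 rose and 3 fell (2.78% and 20.1% of all genes), with a median of 0.06 against -0.87 over all genes. Lpin1, a phosphatidate phosphatase that is also a nuclear coregulator, averaged 524 ± 95.2 CPM in HFD+LYC livers and 16.6 ± 1.46 CPM in HFD livers (SD, n = 3 each), and it rose 31.6-fold (edgeR adjusted p = 8.3e-05). Elovl6, which lengthens the palmitate that Fasn makes, averaged 623 ± 108 CPM in HFD+LYC livers and 69.6 ± 21.4 CPM in HFD livers, an 8.93-fold rise (adjusted p = 0.000268). Elovl5, an elongase of polyunsaturated fatty acids, fell 3.58-fold (adjusted p = 0.00357). Acss2, which makes acetyl-CoA from acetate, fell 2.72-fold (adjusted p = 0.0258). In total RNA 2 of the 15 rose, Lpin1 9.29-fold (adjusted p = 0.00494) and Elovl6 4.49-fold (adjusted p = 0.0175), and 0 fell, against 1.99% and 0.916% of genes. Without HFD+LYC mRNA replicate 2, 1 rose and 0 fell, against 0.443% and 0.07% of genes. In HFD against control livers edgeR called 0 of 15 in either kind of RNA, against 0.00858% of genes in ribosome-bound and 0.0158% in total RNA. There 6 had an unadjusted p under 0.05 in ribosome-bound RNA and 5 in total RNA, against 1.84% and 2.83% of all genes. DESeq2 called 2 and 4 higher, against 0.24% and 0.221% of all genes, and limma-voom called 0.

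Genes that act on SREBP-1 itself, 14 tested, gave 6 that rose and 1 that fell on ribosomes in HFD+LYC against HFD livers (9.34% and 17.4% of all genes), with a median of 0.68 against -0.29 over all genes. By library size alone 1 rose and 1 fell (2.78% and 20.1% of all genes), with a median of 0.11 against -0.87. Insig2, which retains SREBP in the endoplasmic reticulum and is lowered by insulin in liver, fell 6.41-fold (edgeR adjusted p = 0.00117), at 27.6 to 65.6 CPM in HFD+LYC livers against 213 to 377 CPM in HFD livers. The transcription factors Usf1 and Usf2 and the retinoid receptor Rxra rose 2.74-fold, 3.11-fold and 2.83-fold, with adjusted p of 0.00414, 0.00145 and 0.00192. Fbxw7, which marks nuclear SREBP for breakdown, rose 5.92-fold (adjusted p = 0.00723). In total RNA 1 of the 14 rose, the coactivator Ppargc1b (4.34-fold, adjusted p = 0.0481), and 0 fell, against 1.99% and 0.916% of all genes. Without HFD+LYC mRNA replicate 2, 0 rose and 0 fell, against 0.443% and 0.07% of genes.

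Genes that supply carbon and NADPH gave calls in both directions or none. Of 12 carbon supply genes, 2 rose and 3 fell on ribosomes in HFD+LYC against HFD livers (9.34% and 17.4% of all genes). Slc25a1, the citrate carrier that feeds Acly, rose 1.86-fold (edgeR adjusted p = 0.00699). Mpc1, of the mitochondrial pyruvate carrier, fell 4.72-fold (adjusted p = 0.00504), and Acss2 also fell. By library size alone 0 rose and 5 fell, against 2.78% and 20.1% of all genes. Of 7 other NADPH genes tested, edgeR called 0 in any diet contrast in either kind of RNA, unlike Me1. In HFD+LYC against HFD livers on ribosomes, 3 of the 7 had an unadjusted p under 0.05, all lower. Even after adjustment 9.34% of all genes were called higher and 17.4% lower there. Their share at the unadjusted threshold is larger and is not given, so this count does not set the 7 apart. DESeq2 called 1 lower and limma-voom 2 lower, against 21.9% and 22.9% of all genes. These 3 were Taldo1 of the pentose phosphate pathway (log2 -0.92, edgeR adjusted p = 0.0879), the mitochondrial transhydrogenase Nnt (log2 -1.54, adjusted p = 0.101) and the cytosolic isocitrate dehydrogenase Idh1 (log2 -0.71, adjusted p = 0.123). Idh1 averaged 280 ± 121 CPM in HFD+LYC livers and 457 ± 65.2 CPM in HFD livers there. Of 11 genes that control acetyl-CoA carboxylase through AMP-activated kinase and malonyl-CoA, 1 rose and 3 fell on ribosomes in HFD+LYC against HFD livers, against 9.34% and 17.4% of all genes. With library size alone 0 rose and 3 fell, against 2.78% and 20.1%. The catalytic subunit gene Prkaa2 fell 3.07-fold (adjusted p = 0.00365) and Stk11, an upstream kinase, rose 2.49-fold (adjusted p = 0.0159). Mlycd, whose product breaks down malonyl-CoA, fell 1.87-fold (adjusted p = 0.0392), and the phosphatase subunit gene Ppp2ca fell 2.59-fold (adjusted p = 0.00448).

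ChREBP partners and targets, 13 tested, gave 1 that rose and 0 that fell in total RNA in HFD+LYC against HFD livers, against 1.99% and 0.916% of all genes. The gene that rose was Rgs16, a regulator of G protein signalling, at 165 to 403 CPM in HFD+LYC livers against 14.5 to 32.8 CPM in HFD livers (11.3-fold, edgeR adjusted p = 0.0116). On ribosomes Hnf4a, a hepatocyte transcription factor, was the 1 that rose (2.31-fold, adjusted p = 0.0102) and 1 fell, against 9.34% and 17.4% of all genes. With library size alone 0 rose and 3 fell, against 2.78% and 20.1%. Genes of fatty acid elongation, desaturation and activation, 12 tested, gave 2 that rose (Elovl6 and Fads2) and 1 that fell (Elovl5) on ribosomes in the same contrast, against 9.34% and 17.4% of all genes. By library size alone 1 rose and 2 fell, against 2.78% and 20.1% of all genes.

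Feeding state and clock genes were read too, and their part in the results above was not tested. Of 13 genes of the fed and fasted states, 3 rose and 1 fell on ribosomes in HFD+LYC against HFD livers, against 9.34% and 17.4% of all genes. With library size alone 1 rose and 1 fell, against 2.78% and 20.1%. Angptl4, a lipoprotein lipase inhibitor raised in fasting, rose 10.9-fold (edgeR adjusted p = 0.00374). Of 19 clock genes in total RNA, 8 rose and 2 fell, against 1.99% and 0.916% of all genes. Without HFD+LYC mRNA replicate 2, 3 rose and 1 fell, against 0.443% and 0.07%. Dbp, a clock output factor, averaged 126 ± 33.1 CPM in HFD+LYC livers, 22.3 ± 11.3 CPM in HFD livers and 1.36 ± 0.271 CPM in control livers. On ribosomes 6 of 18 clock genes rose and 3 fell, against 9.34% and 17.4% of all genes. With library size alone 4 rose and 3 fell, against 2.78% and 20.1%.

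Markers of other cells were read in the same libraries, and their part in the results was not tested. The Kupffer cell list of 8 summed to 82.2 to 163 CPM in RNC libraries of HFD+LYC livers, 264 to 534 CPM of HFD livers and 237 to 246 CPM of control livers. In mRNA libraries it summed to 152 to 405, 266 to 614 and 202 to 310 CPM in HFD+LYC, HFD and control livers, which overlap. Adipocytes can carry out lipogenesis of their own. Their list of 7 markers summed to 34.2 to 251 CPM in HFD+LYC, 9.24 to 22.2 CPM in HFD and 0.854 to 4.35 CPM in control RNC libraries. In the RNC libraries of HFD+LYC livers 6 of the 7 had 0 reads, so that sum was Cfd alone. In the mRNA libraries of HFD+LYC livers all 7 had reads. There the list summed to 3.34 to 138 CPM, against 7.29 to 15.7 CPM in HFD and 1.04 to 3.77 CPM in control livers. Adipoq, Plin1, Lep and Adig had 0 reads in the RNC libraries of HFD+LYC and of HFD livers. Hepatocyte markers summed to 121186 to 166127 CPM in HFD+LYC, 76936 to 124532 CPM in HFD and 96760 to 112603 CPM in control RNC libraries. In mRNA libraries they summed to 29697 to 75919, 48590 to 95948 and 39506 to 99344 CPM in the same order, which overlap. Erythroid markers summed to 255 to 1497 CPM over all 18 libraries, and the 6 muscle markers to at most 6.18 CPM.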

How the data were processed

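The authors deposited 1 table per library with a read count and an RPKM value per gene, splice variants merged and the longest transcript's length listed, per the file headers. Reads had been mapped to RefSeq RNA sequences, per the labels; bcl2fastq and mm10 are named per the submitters' processing notes, and no aligner is given in the sources used here. Tests ran on the deposited read counts in edgeR 4.0.16 (R 4.3.3): genes were kept by filterByExpr (minimum count 10, minimum total 15), scaled by TMM, fitted with the robust quasi-likelihood method and adjusted by Benjamini-Hochberg over all genes tested, with 12664 genes in 9 mRNA libraries, 11660 in 9 RNC libraries and 12872 in all 18. A change of the RNC to mRNA ratio is the interaction of diet and library kind. The 12 comparisons were repeated with DESeq2 1.42.0 and limma-voom (limma 3.58.1), other scalings and filters, the compared groups alone, a replicate block and each library left out; the method was tested on simulated counts. Counts of called list genes by other scaling and tools, and levels on listed reads without TMM, were added after seeing the data. The deposited RPKM values served to compare levels between genes, and to describe the diets where the text names that scale. No test was run on them.

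Libraries held 4533729 to 12742436 listed reads. The series' design text calls the 3 livers of a diet biological replicates, and the labels name no batch. No 2 replicates agreed within counting noise (chi-square per degree of freedom of 29.8 to 290). mRNA and RNC libraries with the same animal code came from the same liver, and their deviations from the group means correlated at -0.04 to 0.510, over 0.1 in 3 of 9 livers. The 8 genes and the 14 lists were chosen with earlier results of these data known. All 8 are named in every comparison; of each list, the called genes with the smallest p, at most 6, or the 3 with the smallest p where fewer than 3 were called. Promoter windows are from RefSeq (GRCm38.p6). A few genes that these rules name are not reported here. Protein sequences were not used here.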

Additional observations from a re-analysis of the deposited data

Results flagged for a closer look

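The RNC over mRNA ratio of Fasn, the fatty acid synthase gene, differed between diets by a test of the difference itself: the interaction of diet and library kind gave log2 1.70 (SE 0.522) in HFD+LYC against control livers, with an edgeR adjusted p of 0.0349. The ratio was higher in 3 of 3 HFD+LYC livers (1.20 to 2.46) than in any control liver (0.478 to 0.768) with TMM, but not on listed reads alone, at 0.267 to 1.23 against 0.232 to 0.512. The RNC libraries of HFD+LYC livers held reads from 8940 to 10037 genes, against 14072 to 14333 in those of control livers, and the part of that difference in this result was not tested. Groups of 3 livers are too small to test single livers as outliers.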

How the results depend on the processing

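Over 12 comparisons, the number of the 8 genes called was within 1.5 times of that reported in all 12 with DESeq2's size factors and all 12 with limma-voom. DESeq2 moved it to 2 in total RNA for HFD+LYC against HFD and against control livers, and in ribosome-bound RNA to 2 for HFD against control and 4 for HFD+LYC against HFD livers. Over all genes DESeq2 called 6.88% higher and 4.9% lower, and 7.32% and 5.54%, in those total RNA contrasts. In the ribosome-bound ones it called 0.24% and 0.0429%, and 13.2% and 21.9%. For RNC against mRNA DESeq2 gave 1 in HFD and 3 in control livers. Library size alone gave 1 and 3 in ribosome-bound RNA for HFD+LYC against HFD and control livers, 1 ratio for HFD+LYC against HFD, and 1 and 3 for RNC against mRNA in HFD and control livers. In ribosome-bound RNA of HFD+LYC livers, library size alone called 2.78% of all genes higher and 20.1% lower against HFD livers. Against control livers these shares were 3.23% and 18.2%. Of 40 fold changes library size alone reversed 1, Fasn in RNC against mRNA of HFD+LYC livers, at -0.25, where the median gene lay at -1.81. A mean of at least 10 CPM gave 4 for HFD+LYC against HFD livers in ribosome-bound RNA. With no filter, or the compared groups alone, 0 ratios were called in HFD+LYC against control livers. RNC against mRNA then gave 2 and 1 in HFD+LYC livers, and the groups alone gave 2 in control livers. The replicate block (same liver) gave 0 there, and changed no other call. Same-numbered livers of different diets correlated at -0.416 to 0.464 in mRNA (over 0.1 in 7 of 9 pairs) and -0.06 to 0.333 in RNC libraries (2 of 9), and a library was most like its own number in 10 of 18 and 6 of 18 cases. Not every pair passed 0.1 and the labels link no numbers across diets, so the fits of 1 kind of RNA have no block. The fits over both kinds have none either, although the liver pairing is known, and the same-liver block above is the alternative to them. With the number as a replicate block, genes called in total RNA went to 1457 against 368 for HFD+LYC against HFD livers, and to 1425 against 701 for HFD+LYC against control livers. With the same-liver block, genes called for RNC against mRNA went to 2 against 274 in control livers and to 1 against 13 in HFD livers. Ratios called in HFD+LYC against control livers went to 1390 against 1906 over all genes. Restricting to genes with at least 10 reads in every RNC library, chosen after seeing the data, gave 1 for RNC against mRNA in HFD livers.

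Leaving out 1 library gave 0 to 1 calls in total RNA for HFD+LYC against HFD and 0 to 2 against control livers, and 2 to 4 and 4 to 5 in ribosome-bound RNA. Ratios gave 0 to 1 in both HFD+LYC contrasts, and RNC against mRNA gave 2 to 3, 0 to 2 and 0 to 3 in HFD+LYC, HFD and control livers. Shares of all genes are not given beside these counts or most of those above, so they describe the processing only. The reversed and moved values above were not traced further: the cause was not tested.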

Other observations

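Over the 9 RNC libraries the enzymes' log2 CPM moved in step to different degrees, given here as a description of libraries that share diets. Acaca was most like Fasn (Pearson r = 0.941, Spearman rho = 0.95) and Acacb most like Acaca (r = 0.938, rho = 0.983), and Thrsp was most like Fasn (r = 0.854, rho = 0.917). Me1 had no close partner: its highest r was 0.221, with Acly, and its lowest was -0.61, with Thrsp. The median over the 28 pairs was 0.184. Over the 9 mRNA libraries Me1 and Mlxipl were the least alike (r = -0.87), the median was 0.204, and the closest pair, Acaca and Srebf1 (r = 0.779), had a rho of 0.3.

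Among the 5 other genes most like the mean of the 8 in ribosome-bound RNA, of 5868 with a mean of at least 10 CPM, were Pcx (pyruvate carboxylase, r = 0.937), Tkfc (triokinase of fructose metabolism, 0.897), Gsk3b (glycogen synthase kinase, 0.890) and Acot2 (a mitochondrial acyl-CoA thioesterase, 0.885). In total RNA, among 8321 genes, the 5 were Ddx54 (r = 0.990), Grpel2 (0.924), Mob2 (0.911), Egln2 (0.911) and Rfc2 (0.905).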
